A study of Mus musculus with 2 samples.

Results

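The cells described here are the Matrigel-grown mouse small-intestinal organoid cells with the highest expression of 9 immediate-early genes, compared with the Matrigel cells lowest in the same genes. Each cell was scored by summing its counts per 1000000 (CPM) of Fos, Fosb, Jun, Egr1, Atf3, Ier2, Dusp1, Zfp36 and Btg2. The highest 20% of the cells with at most 30% mitochondrial counts, 320 of 1599, are the high-score cells, and the lowest 20%, also 320, are the low-score cells. There were 1615 Matrigel cells in all, of which 16 exceeded the mitochondrial limit, and 336 collagen-grown cells within that limit. The score was read from the same cells that it sorted. The levels of the 9 genes are therefore a description of the choice, and the results are the genes outside the list.

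Proximal small-intestinal crypts of wild-type C57BL/6 mice were grown for 4 days under 2 conditions. Matrigel with EGF, Noggin and R-spondin1 gives budding organoids. Collagen type I with the same factors plus Wnt3a and nicotinamide gives cystic organoids. Matrigel cultures were released with a cell recovery solution and collagen cultures with collagenase, and both were then digested with TrypLE, dispersed mechanically and strained. The cells of each culture carried a hashtag antibody against EpCAM, an epithelial surface protein, and were pooled into 1 single-cell library. The high-score and low-score cells thus share 1 culture condition, 1 hashtag and 1 library. Cells are not replicates, so no test between them was possible, and no p-value is given. Intervals are exact 95% Poisson intervals of summed counts or exact binomial intervals of shares, and they cover counting error at most. Whether copies of 1 molecule were counted once is not stated.

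Immediate-early genes are transcribed within minutes of a stimulus without new protein synthesis. Growth factors acting through MAP kinases and serum response factor, cyclic AMP, stretch, wounding and tissue dissociation are all known inducers. Many of the products are transcription factors, such as the AP-1 subunits of the FOS, JUN and ATF families and the zinc-finger EGR proteins. Others end the response: DUSP1 removes phosphate from MAP kinases, ZFP36 directs mRNAs to decay, and BTG2 restrains proliferation. In the crypt, EGF receptor signalling sustains dividing stem and progenitor cells, and differentiated Paneth, goblet, enteroendocrine and absorptive cells derive from them.

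Some of these genes carry known inducible elements just upstream of their start. The following stretches are shown because they hold, in capitals, the CArG box bound by serum response factor or the cyclic AMP response element (CRE), in a gene of the score or in a gene that was higher in the high-score cells. They are from the RefSeq promoter table on build GRCm38.p6, 5′ to 3′ on the gene's strand.
Zfp36, 7:28379257-28379306, minus strand, CArG box: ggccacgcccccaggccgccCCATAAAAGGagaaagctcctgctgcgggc
Dusp5, 19:53529043-53529102, plus strand, adjacent CArG boxes: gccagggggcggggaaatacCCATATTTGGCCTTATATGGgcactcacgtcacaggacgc
Dusp1, 17:26508588-26508635, minus strand, CRE: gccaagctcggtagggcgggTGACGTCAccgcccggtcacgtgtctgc
Btg2, 1:134079294-134079341, minus strand, CRE: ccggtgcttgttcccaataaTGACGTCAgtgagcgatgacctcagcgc
Areg, 5:91139518-91139565, plus strand, CRE: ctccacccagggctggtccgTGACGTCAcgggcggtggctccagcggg
Plk2, 13:110394962-110395009, plus strand, CRE: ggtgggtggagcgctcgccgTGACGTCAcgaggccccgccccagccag
The motifs were searched on both strands in the 250 bases before each listed start, the CRE as TGACGTCA and the CArG box by its usual consensus. The CArG box was present before 1.47% of 32851 listed starts and the CRE before 1.55%. By gene, the shares were 1.62% and 1.77% of 27025 genes. Of the 9 score genes, 7 had an entry, of which 1 held a CArG box and 2 held a CRE. Egr1 and Ier2 had no entry, and bases further upstream were not searched. AP-1 and EGR sites were searched in the same way. No score gene with an entry held an AP-1 site, against 7.82% of genes, and 2 held an EGR site, against 2.93%. Of 33 early response and feedback genes higher with all cells and without the differentiated-marker cells described below, 25 had an entry. Of these 25, 2 held a CArG box, 6 a CRE, 1 an AP-1 site and 4 an EGR site. A match describes the letters in the window and does not show that a factor binds there.

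The score was continuous, with no gap between the groups. High-score cells spanned 2507 to 7839 CPM with a median of 3119 CPM, and low-score cells spanned 19.0 to 1151 CPM with a median of 909 CPM. The cell just outside the high-score group had 2506.6 CPM and the one just above the low-score group 1152 CPM. Collagen cells had a median of 553 CPM. Only 11 of the 336 collagen cells, 3.27% (1.65 to 5.78%), reached the lower limit of the high-score group, whereas 260 of them, 77.4% (72.5 to 81.7%), lay within the range of the low-score group. Culture matrix, medium and release step differ together between those cultures, so their parts cannot be told apart.

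**Figure D1:**
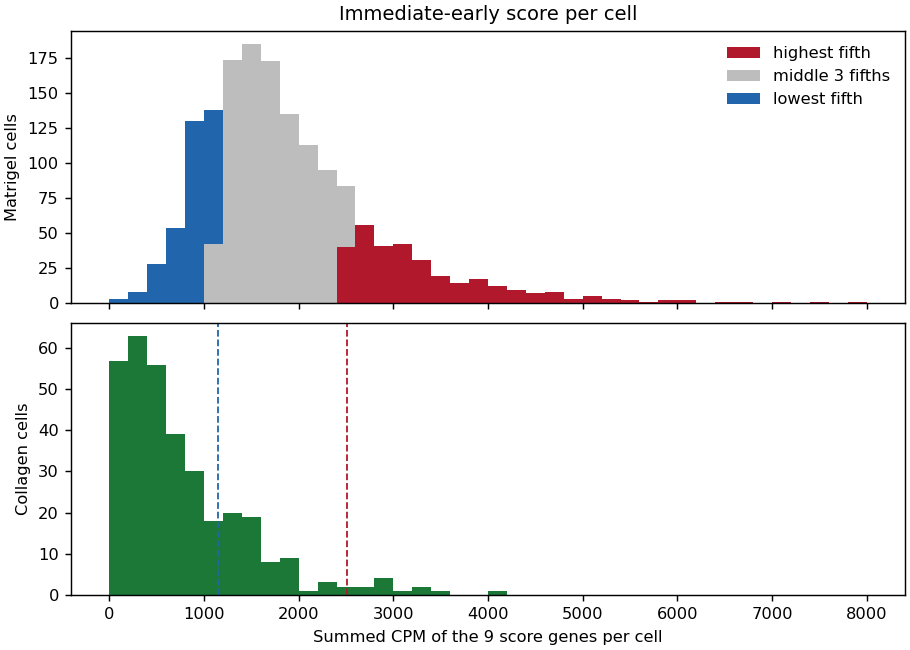
Histograms of the summed CPM of the 9 score genes per cell (x axis) against the number of cells (y axis), for Matrigel cells coloured by score quintile (top) and collagen cells (bottom, dashed lines at the Matrigel limits). The Matrigel cells form 1 skewed distribution with a tail to 7839 CPM, and the collagen cells lie mostly below the limit of the low-score group.

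High-score cells were shallower, with a median of 151475 counts and 8890 genes per cell, against 186868 counts and 9588 genes in low-score cells. The mitochondrial share was close in both, at a median of 4.61% in high-score and 4.54% in low-score cells. No cell barcode of either group was also that of a collagen cell within the mitochondrial limit. Summed markers of epithelial identity were 4954 CPM in high-score and 4906 CPM in low-score cells, and none of their 8 genes differed by 1.5-fold. No immune or endothelial marker reached 5 CPM in either group. Of the fibroblast markers only Vim did, at 19.7 CPM in high-score cells, where 99.4% of its counts came from 10 cells, and 0.168 CPM in low-score cells.

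The 9 score genes differed in how widely they separated the groups. Egr1, a zinc-finger transcription factor, was at 807 CPM in the summed high-score cells and 163 CPM in the summed low-score cells, and Jun, an AP-1 subunit, was at 674 CPM in high-score and 222 CPM in low-score cells. Fosb, a further AP-1 subunit, had the widest ratio, at 55.5 CPM in high-score and 4.76 CPM in low-score cells. To see each gene apart from its own part in the sum, cells were re-ranked by the other 8 genes. Under that ranking the log2 ratio of high over low was 3.15 for Fosb, 2.79 for Atf3, an ATF-family repressor and activator, 2.04 for Btg2, 1.75 for Fos, 1.74 for Egr1, 1.68 for Dusp1, 1.21 for Zfp36, 1.02 for Jun and 0.80 for Ier2. Every gene thus remained higher in cells picked without it, Fosb and Atf3 by the widest ratio and Ier2 by the narrowest. Over the 36 pairs, Spearman's rho between cells thinned to equal depth ran between 0.120 for Ier2 with Dusp1 and 0.466 for Fos with Egr1.

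**Figure D2:**
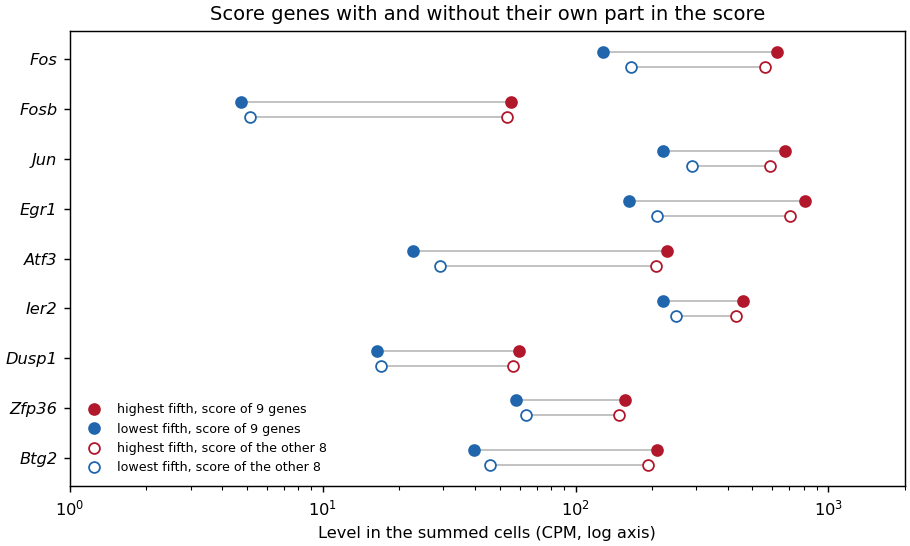
Level of each score gene in CPM (log x axis) in the high-score and low-score cells chosen by all 9 genes (filled) and by the other 8 (open). Each gene is higher in the highest quintile under both rankings, with the gap narrowed least for Fosb and Dusp1.

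Outside the score list, about as many early response genes were higher in the high-score cells as stayed within 1.5-fold. Genes at 5 CPM or more in either group were compared, and called higher or lower past a 1.5-fold ratio of (CPM + 1). Of 10399 genes, 667 were higher in high-score cells, 6.41%, and 114 were lower, 1.1%. Of 61 measured members of 3 lists of other AP-1 members, immediate-early transcription factors and primary response genes, 32 were higher, 28 stayed within 1.5-fold and 1 was lower. Their median log2 ratio was 0.65, against 0.02 over all genes compared. By list, 5 of 8 AP-1 members were higher (median 0.68), 8 of 25 transcription factors (median 0.35) and 19 of 28 primary response genes (median 0.83). At least 2-fold, 18 of the 61 were higher and 0 lower, against 2.34% higher and 0.0962% lower of all genes compared. Across the 5 quintiles of the score, each an equal 20% of the cells, 25 of the 61 were higher at every step, against 5.68% of all genes compared.

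Among the transcription factors of these lists, which leave out the score genes, Egr2, a paralogue of Egr1, had the highest ratio. It stood at 12.0, 25.0, 31.6, 48.7 and 72.6 CPM from the lowest to the highest quintile (log2 ratio 2.50). The interval was 70.2 to 75.0 CPM in high-score cells and 11.1 to 12.9 CPM in low-score cells. Per cell it ranged between 0 and 513 CPM around a median of 52.6 CPM in high-score cells, and between 0 and 161 CPM around a median of 0 in low-score cells, so the groups overlap. After thinning every cell to 91971 counts, 88.2% (83.6 to 91.8%) of 262 high-score cells and 39.3% (33.7 to 45.2%) of 290 low-score cells had an Egr2 count. Without thinning, the shares were 85.9% in high-score and 45.9% in low-score cells. No cell type that lacks Egr2 was defined here, so the share that free RNA alone gives was not measured. Nr4a1, an orphan nuclear receptor, was at 36.5 CPM in high-score and 7.58 CPM in low-score cells. Junb, an AP-1 subunit, was at 87.4 CPM in high-score and 30.3 CPM in low-score cells, and Klf6, a Krüppel-like factor, at 342 CPM in high-score and 147 CPM in low-score cells. All 3 were higher at every step. Myc, Ier5, Cebpb and Bhlhe40 stayed within 1.5-fold, Myc with 60.1 CPM in high-score and 70.3 CPM in low-score cells.

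Of 28 measured primary response genes, 19 were higher and 1 was lower, and 15 were higher at every step. Edn1, the vasoactive peptide endothelin-1, was at 83.7, 125, 180, 239 and 341 CPM over the 5 quintiles. Ccn1, a matricellular protein, was at 110, 189, 216, 304 and 380 CPM. Hbegf, a ligand of the EGF receptor, was at 113, 172, 193, 255 and 369 CPM. Each step was higher than the one before, so for these 3 the difference does not rest on the extreme cells alone. Vegfa and Gdf15, secreted factors of the same list, were higher at the ends but not at every step, Gdf15 at 12.3, 20.5, 19.8, 25.6 and 23.6 CPM over the 5 quintiles. Per cell, Edn1 ranged between 0 and 2749 CPM around a median of 116 CPM in high-score cells, and between 0 and 1942 CPM around a median of 23.7 CPM in low-score cells. The groups overlap for it as they do for Egr2. Thbs1, the matrix protein thrombospondin-1, was at 39.3 CPM in high-score and 6.13 CPM in low-score cells. Areg, the EGF receptor ligand amphiregulin, was at 78.9 CPM in high-score and 20.7 CPM in low-score cells. Values of Areg below 7.88 counts are missing from the table. Its log2 ratio was 1.88 with zeros as listed and 1.00 with every zero set to that smallest value. Of 8 measured EGF receptor ligands and receptors, only Hbegf and Areg were higher, against 6.41% of all genes compared, and none was lower. Egfr itself was at 16.5 CPM in high-score and 13.6 CPM in low-score cells.

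**Figure D3:**
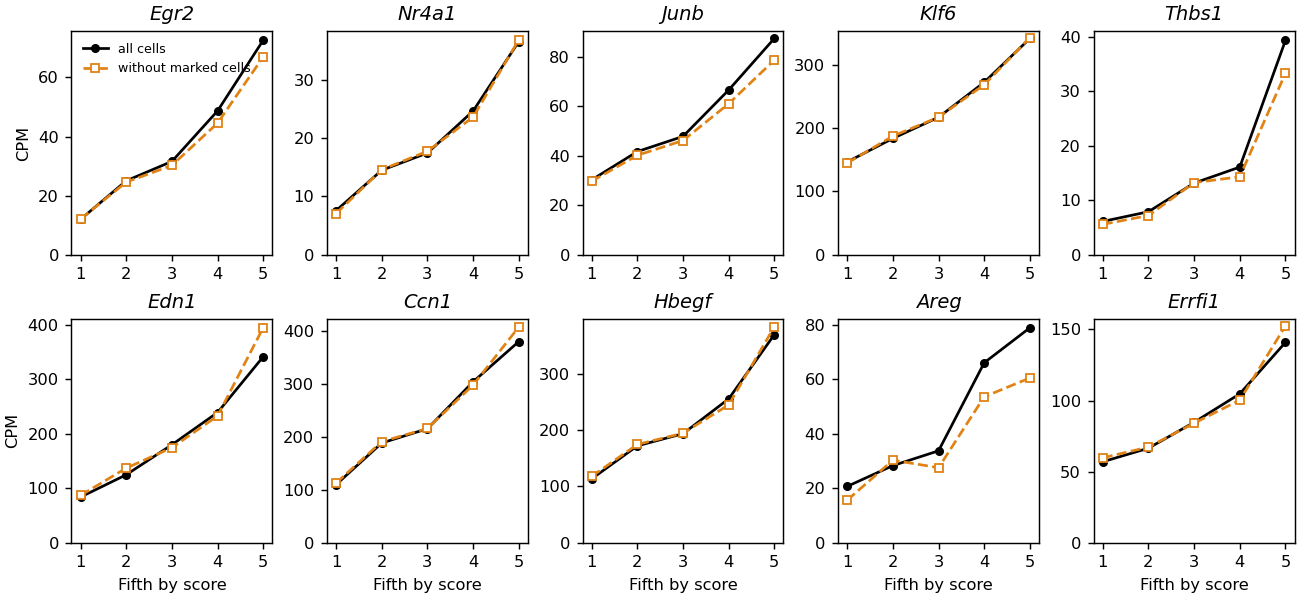
Level in CPM (y axis, starting at 0) of 10 early response genes across the 5 quintiles of Matrigel cells by score (x axis, lowest to highest), for all cells (black) and with differentiated-marker cells left out (orange). With all cells, each gene is higher at every step; without them all but Areg are.

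Feedback genes of the MAP kinase pathway were higher in part. Of 17 measured, 7 were higher and 1, Dusp7, was lower, against 6.41% higher and 1.1% lower of all genes compared. Errfi1, which inhibits the EGF receptor, was at 141 CPM in high-score and 57.0 CPM in low-score cells. Dusp5, a nuclear ERK phosphatase, was at 38.1 CPM in high-score and 14.0 CPM in low-score cells. Dusp6, Dusp8, Dusp10, Spry1 and Spry2 made up the rest. Etv4 and Etv5, ERK-regulated transcription factors, had log2 ratios of -0.38 and -0.48, and Ccnd1 had -0.24. Of 9 measured YAP and TAZ targets, 7 were higher, with a median log2 ratio of 1.03. The list shares Edn1, Areg, Ccn1 and Ccn2 with the primary response list, and also held Amotl2, an angiomotin family member, at 27.5 CPM in high-score and 9.32 CPM in low-score cells. None of 19 measured actin and serum response factor targets passed 1.5-fold.

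Other stress lists were mixed, beside 6.41% higher and 1.1% lower of all genes compared. Of 16 measured p53 targets outside the score, 4 were higher and none was lower, with a median log2 ratio of -0.13. None of 20 unfolded protein response genes passed 1.5-fold. Of 12 heat shock genes, 2 were higher (Dnajb1 and Dnajb4) and none was lower, with a median log2 ratio of -0.22. At every step of the quintiles, 5 of the 12 were lower, against 7.86% of all genes compared. Among the chaperones, Hspd1, of the mitochondrial matrix, was at 794 CPM in high-score and 1161 CPM in low-score cells, and its partner Hspe1 at 1101 CPM in high-score and 1537 CPM in low-score cells. Of 18 ATF4 targets, 3 were higher and 2 were lower. Among the 3, Nupr1, a stress-inducible chromatin protein, was at 42.5 CPM in high-score and 16.1 CPM in low-score cells. Psat1 and Shmt2, enzymes of serine and glycine synthesis, were the 2 lower ones. Of 14 NF-kB targets, 3 were higher, with a median log2 ratio of 0.30, against 6.41% higher of all genes compared, and none of 7 interferon response genes passed 1.5-fold.

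The largest ratios of all belonged to differentiated secretory and absorptive cells, and came from few cells. Of all genes compared, 6.41% were higher in high-score cells. All 11 measured Paneth genes, 12 of 13 goblet genes, all 9 enteroendocrine genes and 13 of 16 enterocyte genes were higher. Many of these passed the 5 CPM limit only through the high-score group, so the counts describe the list. The 15 largest ratios by the naming rule were those of Chgb, Reg4, Defa39, Reg1, Cck, Defa17, Defa3, Chga, Defa23, Defa31, Clps, Mmp7, Spink4, Fcgbp and Sis. They encode secretory granule proteins, a gut hormone, defensins, lectins, mucus components and digestive proteins. Between 57.9% and 100% of each gene's counts in high-score cells came from 10 cells. Low values of 12 of the 15 are missing from the table, and Chgb, Reg4, Reg1 and Defa39 are listed at 0 in all low-score cells. With zeros as listed, the log2 ratios of these 12 ran from 3.63 for Fcgbp to 8.75 for Chgb. With zeros set to each gene's smallest kept value, they ran from 0.58 for Cck to 1.83 for Mmp7, with Chgb at 0.88. The defensin genes are near-identical copies, so how their reads were divided is uncertain. Chga, the secretory granule protein of enteroendocrine cells, was at 69.7 CPM in high-score cells, with 95.4% of its counts in 10 cells, and 0.318 CPM in low-score cells. Sis, the sucrase-isomaltase of the enterocyte brush border, was at 65.8 CPM in high-score cells, with 72.6% of its counts in 10 cells, and 4.52 CPM in low-score cells. Muc2, the goblet mucin, was at 19.6 CPM in high-score and 1.10 CPM in low-score cells. The median enterocyte marker sum per cell was 689 CPM in high-score and 688 CPM in low-score cells. For Paneth markers the medians were 27.8 CPM in high-score and 19.8 CPM in low-score cells. For goblet markers they were 35.4 CPM in high-score and 29.9 CPM in low-score cells, and for enteroendocrine markers 0 in both. These per-cell medians differed far less than the levels in the summed cells.

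Cells with high summed markers were therefore counted, with limits of 1000 CPM for Paneth and goblet markers, 500 CPM for enteroendocrine and 3000 CPM for enterocyte markers, set after the data were seen. They made up 84 of 320 high-score cells, 26.3% (21.5 to 31.4%), and 37 of 320 low-score cells, 11.6% (8.27 to 15.6%). Over the 5 quintiles their number was 37, 29, 29, 32 and 84. Of the 23 cells above the enteroendocrine limit, 17 were high-score and 2 were low-score. The limits overlap: 17 of these 23 cells also passed another limit, as did 57 of 91 cells above the Paneth limit, 57 of 99 above the goblet limit and 5 of 71 above the enterocyte limit. Per-cell medians in the cells above the enteroendocrine limit were 935 CPM for Egr1, 556 for Jun, 496 for Btg2, 454 for Ier2, 191 for Fos, 10.2 for Atf3 and 0 for Fosb. Cells below all 4 limits had medians of 348 CPM for Egr1, 380 for Jun, 54.5 for Btg2, 313 for Ier2, 282 for Fos, 45.0 for Atf3 and 4.79 for Fosb. Cells above the enteroendocrine limit had a median of 83638 counts, against 180605 in cells below all 4 limits.

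**Figure D4:**
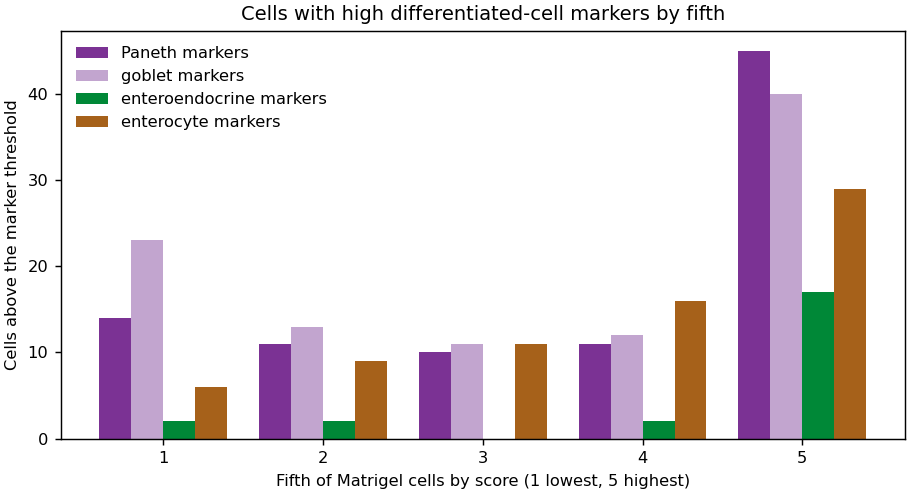
Number of Matrigel cells above each marker limit (y axis) in each quintile of the score (x axis, lowest to highest); a cell can pass several limits. The highest quintile holds 45 cells above the Paneth, 40 above the goblet, 17 above the enteroendocrine and 29 above the enterocyte limit.

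The comparison was repeated without the 211 cells above any limit, on quintiles of the other 1388 cells. Of 10166 genes, 306 were then higher, 3.01%, and 55 lower, 0.541%. Of the early response genes, 26 of 61 were higher and 0 lower, with a median log2 ratio of 0.50 against 0.001 over all genes. At every step of the quintiles, 26 of the 61 were higher, against 4.47% of all genes compared. Egr2 kept a log2 ratio of 2.37, Nr4a1 2.23, Edn1 2.17, Ccn1 1.85, Hbegf 1.69 and Klf6 1.24. Genes of the 4 marker lists are not read here, since the cells were left out for their levels of them. Klf4, which marks differentiating cells as well as early responses, had 0.37, against 0.89 with all cells.

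**Figure D5:**
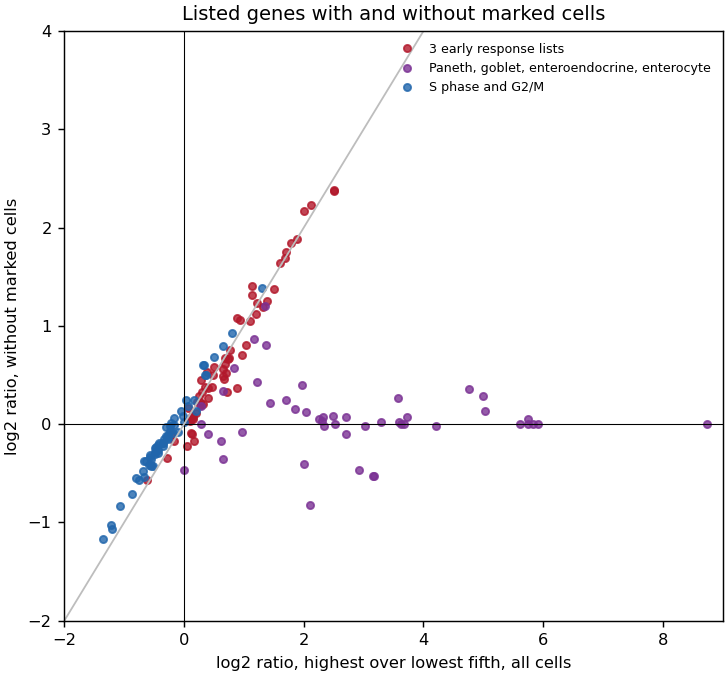
Log2 ratio of the highest over the lowest quintile with all cells (x axis) and without the differentiated-marker cells (y axis), 1 point per listed gene; the grey diagonal marks equal values. Early response genes and cell cycle genes lie near the diagonal. Cells high in the marker genes were left out on the y axis, where many of these genes lie near 0, such as Chgb and Chga. Others do not, such as Lyz1 at 0.86 and Fabp1 at -0.53.

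Genes of the dividing cell were lower in part. Of all genes compared, 6.41% were higher and 1.1% lower. Of 30 S phase genes, 4 were lower (Rrm2, Ccne1, Ccne2 and Uhrf1) and none was higher, and the list's median log2 ratio was -0.43. Of 28 G2/M genes, 7 were lower and 3 were higher. Cenpa, the centromeric histone, was at 39.6 CPM in high-score and 103 CPM in low-score cells. Cdc20, an activator of the anaphase-promoting complex, was at 15.7 CPM in high-score and 37.9 CPM in low-score cells, and Ccnb2, a mitotic cyclin, at 37.5 CPM in high-score and 87.1 CPM in low-score cells. The 3 higher ones were Nusap1, Aurkb and Top2a, the last at 67.1 CPM in high-score and 42.3 CPM in low-score cells. The G2/M list therefore did not move one way. S100a6, a calcium-binding protein, was also among the 15 lowest ratios, at 135 CPM in high-score and 264 CPM in low-score cells. From 10 cells came 37.4% of its counts in high-score and 37.1% in low-score cells. Its per-cell median was 0 in high-score and 95.9 CPM in low-score cells. Its values below 10 counts are missing. The log2 ratio was -0.97 with zeros as listed and -0.72 with zeros set to that value.

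Per cell, the summed G2/M genes had medians of 789, 597, 582, 384 and 285 CPM over the 5 quintiles. The typical cell showed the same for Cenpa, whose per-cell median was 0 in high-score and 56.9 CPM in low-score cells. Mki67, the proliferation antigen Ki-67, had a per-cell median of 1.90 CPM in high-score and 34.2 CPM in low-score cells. Its level in the summed cells was nonetheless close, at 47.4 CPM in high-score cells, where 30.8% of the counts came from 10 cells, and 49.2 CPM in low-score cells. The 20 ribosome biogenesis genes all stayed within 1.5-fold, with a median log2 ratio of -0.33, and 8 of them were lower at every step, against 7.86% of all genes compared. Without the differentiated-marker cells, 1 of the 30 S phase genes was lower and none higher, with a median of -0.22. Of all genes compared without those cells, 3.01% were higher and 0.541% lower. Of the 28 G2/M genes, 6 were then higher and 4 lower, with a median of 0.03 against -0.13 with all cells, while Cenpa had a log2 ratio of -1.16. The ribosome biogenesis median was -0.20, with 5 of the 20 genes lower at every step, against 6.66% of all genes compared.

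No crypt stem cell gene was lower past 1.5-fold in the summed cells. Of 20 measured, 4 were higher, against 6.41% of all genes compared. Lgr5, the R-spondin receptor of crypt base stem cells, was at 111, 126, 130, 137 and 172 CPM over the 5 quintiles. Olfm4, a secreted glycoprotein of the same cells, was at 2221 CPM in high-score and 1257 CPM in low-score cells; its values below 12 counts are missing from the table, and with zeros set to that value its log2 ratio stayed at 0.82. Gkn3 and Tnfrsf19 were the others, and Ascl2 had 45.0 CPM in high-score and 47.7 CPM in low-score cells. The share of cells with a count was not higher. After thinning, Olfm4 had a count in 78.2% (72.8 to 83.1%) of high-score and 83.1% (78.3 to 87.2%) of low-score cells. For Lgr5 the shares were 87.4% (82.8 to 91.2%) in high-score and 90.0% (86.0 to 93.2%) in low-score cells. When groups were chosen within bins of equal depth, the log2 ratio was 0.44 for Lgr5, below the 1.5-fold limit, and 0.67 for Olfm4. Those groups had medians of 178884 counts per high-score and 179189 per low-score cell, and in them Egr2 had a log2 ratio of 2.48, Edn1 1.87 and Cenpa -1.32.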

How the data were processed

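The deposited table of expected counts, made by the authors from 1 pooled single-cell cDNA library, gives 37172 genes per cell; 75.6% of its values above 0 are whole within 1e-06. The submitters' processing notes name cutadapt 4.1, STARsolo 2.7.10a, R 4.2.1 and GRCm39, with no role given. Hashtag counts were deposited by the authors as a table of counts per cell and culture, and were used to check each cell's culture (median own-hashtag share 99.5% in high-score and 99.5% in low-score cells). Low values of 49 genes are missing from the table, none of them a score gene.

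For each group, the counts of its cells were added up and scaled to 1000000 (CPM). Ratios are log2 of (CPM + 1), and genes at 5 CPM or more in either group were compared. Shares of cells with a count of a gene were taken after thinning, which left out 58 high-score and 30 low-score cells. Shares of cells past a marker or score limit were taken without thinning. Named genes are the 15 largest ratios in each direction at 50 CPM and 100 counts or more, up to 4 of each list at 10 CPM, and fixed markers; others in the text were chosen from the lists after their values were seen. The cells and gene lists were chosen with earlier results of these data known. The ratio step was tested on simulated data. Python 3.11.15, numpy 2.4.6, pandas 2.3.3 and scipy 1.17.1 were used. Alternatives changed the size of the groups, the score, depth matching, scaling, pseudocount, filter and cells. Promoter sequences came from RefSeq GRCm38.p6, a build other than that of the counts, and were matched by symbol. The collagen cells were used for the score only.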

Additional observations from a re-analysis of the deposited data

How the results depend on the processing

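No paired analysis was possible because both groups come from 1 library with no replicates. Genes higher in high-score cells, 667 as reported, numbered 1300 with ends of 10%, 286 with tertiles, 439 with the mean rank of the 9 genes, 430 within depth bins, 1017 with the mean of the cells' own CPM, 371 with a pseudocount of 5, 1269 with no filter, 246 with a filter of 20 CPM and 306 without differentiated-marker cells. Genes lower, 114 as reported, numbered 471, 30, 76, 49, 210, 46, 174, 70 and 55 under the same settings. With the score from thinned cells, 469 genes were higher and 74 were lower. The other settings gave between 567 and 715 higher genes and between 88 and 123 lower ones. The early response median, 0.65 as reported, was 0.83 with ends of 10%, 0.50 with tertiles, 0.51 with the thinned score, 0.48 with a pseudocount of 5, 0.47 with no filter and 0.50 without differentiated-marker cells. Leaving those cells out, an alternative chosen after seeing the data, turned the enterocyte list to -0.10, Alpi to -0.35, Clca1 to -0.013, Fabp1 to -0.53, Rbp2 to -0.41 and Ly6a to 0.89. Genes of the marker lists had to move there, since cells high in them were left out. Setting zeros to the smallest kept value, also added after seeing the data, gave Ly6a 0.15. Cck was -0.15 with tertiles, -1.95 with the thinned score and -0.70 with the mean rank, which also gave Defa23 -0.14 and Defa31 -0.14. The cause of these changes was not tested. Of 1373 alternative values of the 112 named genes past 1.5-fold, 1351 kept their sign and 1222 stayed past 1.5-fold.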

Other observations

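The naming rule was also applied to the highest and lowest quintiles of the cells below the differentiated-marker limits. The 15 genes with the largest ratios there were mostly early response genes: Egr2, Edn1, Areg, Ccn1, Hbegf, Cldn4, Junb, Errfi1, Ier3, Klf6, Clec2e, Trib1, Tcim, Olfm4 and Tsc22d1. Cldn4, a tight junction claudin, was at 60.7 CPM in the highest and 19.7 CPM in the lowest quintile of those cells. Tsc22d1, a leucine zipper protein, was at 236 CPM in the highest and 123 CPM in the lowest of the same quintiles. Clec2e, a C-type lectin family member, was at 59.7 CPM in the highest and 26.5 CPM in the lowest of them.

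Of 12 measured genes of RNA decay and translation feedback outside the score, 3 were higher with all cells, against 6.41% of all genes compared. Zfp36l1, a paralogue of Zfp36, was at 232 CPM in high-score and 141 CPM in low-score cells. Btg1, a paralogue of Btg2, was at 114 CPM in high-score and 71.9 CPM in low-score cells. Pnrc1, a nuclear receptor coactivator, was at 127 CPM in high-score and 72.6 CPM in low-score cells. Cdkn1a, a cyclin-dependent kinase inhibitor, was at 133 CPM in high-score and 62.8 CPM in low-score cells. Its log2 ratio was 1.07 with all cells and 0.23 without the differentiated-marker cells. Odc1, the polyamine synthesis enzyme and the only early response gene past 1.5-fold in the other direction, was at 80.2 CPM in high-score and 124 CPM in low-score cells.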
